A study of Mus musculus with 36 samples.

Results

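Histone deacetylase genes were followed at the RNA level while mouse B cells were converted into macrophages. The 10 genes were Hdac1 to Hdac9 and Hdac11, taken by name from the 40354 genes of the deposited count tables, and all 10 were present in both count tables and in both tables of log2 values. The study placed primary bone marrow B cells of C57BL/6J mice under a retrovirus carrying C/EBPα fused to the estrogen receptor hormone-binding domain (C/EBPα-ER-hCD4), enriched the hCD4+ cells and grew them on inactivated mouse embryonic fibroblast feeders with cytokines. Estradiol (E2) moves the fusion protein into the nucleus, and this starts the B cell to macrophage transdifferentiation (BMT). C/EBPα was wild-type (WT) or had arginine 35 replaced by alanine (R35A) or by lysine (R35K). RNA was sequenced at 0, 1, 3, 6, 18 and 120 hours post induction (hpi), with 2 libraries in each of the 18 groups of construct and time, so that all cells, the 0 hpi controls included, carried the virus and had shared the culture with feeders.

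Histone deacetylases remove acetyl groups from lysines of histones and other proteins, and the zinc-dependent enzymes fall into classes. Class I enzymes (Hdac1, Hdac2, Hdac3 and Hdac8) are mostly nuclear, and Hdac1 to Hdac3 are the catalytic subunits of large corepressor complexes. Class IIa enzymes (Hdac4, Hdac5, Hdac7 and Hdac9) have little catalytic activity of their own, bind MEF2 transcription factors, and are held in the cytoplasm by 14-3-3 proteins once kinases have phosphorylated them. Hdac7 is known in B cell precursors as a MEF2C partner that keeps genes of other lineages silent. Class IIb is represented here by Hdac6, a cytoplasmic tubulin deacetylase, and class IV by Hdac11.

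Libraries held between 13044456 and 23131776 counts assigned to genes, with a median of 15471229.5, and the 10 genes had between 24 and 4428 counts in a library. Levels are given as CPM, a gene's counts relative to the total of its library, with totals adjusted by the trimmed mean of M-values (TMM) over all 36 libraries. Fold changes come from fits with factors of their own (WT and R35A together, R35K alone), so that at 120 hpi a fitted log2 fold change less the log2 ratio of the printed CPM was -0.13 in WT, -0.12 in R35A and -0.10 in R35K as a median over the members, and between -0.06 and 0.02 at earlier times. The number of libraries, 2 a group, limits the precision, and the labels do not say whether they came from separate cultures or animals, so that the p-values measure the spread between these libraries. A gene was called when its Benjamini-Hochberg adjusted p in edgeR's quasi-likelihood test was at most 0.05 over all genes and its fold change was at least 1.5, and only called genes are said to have risen or fallen. In bulk RNA, fewer cells of a type and less RNA per cell cannot be told apart.

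The cell types were checked against marker genes. The summed level of 8 B cell genes was 3668 to 4024 CPM at 0 hpi in the 3 constructs, 596 to 1896 CPM at 1 hpi, 272 to 421 CPM at 18 hpi and 130 to 197 CPM at 120 hpi, and all 8 fell at 1, 18 and 120 hpi in each construct. The summed level of 8 macrophage genes was 66.8 to 75.6 CPM at 0 hpi and 21380 to 33307 CPM at 120 hpi, and all 8 rose in each construct. Libraries labelled 1 hpi already stood apart from 0 hpi, with macrophage sums of 969 to 977 CPM in WT, 4298 to 4316 CPM in R35A and 8922 to 9087 CPM in R35K. Of 10 feeder fibroblast genes, summed levels were 5790 to 6291 CPM at 0 hpi, 7515 to 10914 CPM at 1 hpi, 9335 to 14915 CPM at 18 hpi and 8720 to 9972 CPM at 120 hpi, when Lum was at 0 and 9 fell and 1 rose in WT. The gene that rose, Fn1, which encodes fibronectin, made up most of these sums, with 4719 CPM at 0 hpi and 9760 CPM at 120 hpi in WT. The other 9 genes summed to 1124 to 1222 CPM at 0 hpi, 2148 to 2635 CPM at 1 hpi, 1681 to 2917 CPM at 18 hpi and 142 to 507 CPM at 120 hpi, and Postn and Thy1 went from 85.4 and 137 CPM to 0.28 and 1.7 CPM in WT. Of 6 granulocyte genes the sum was 32.6 to 42.2 CPM at 0 hpi and no higher than 10.2 CPM later. Sums of 4 T cell genes stayed at or below 1.65 CPM and those of the 3 erythroid genes found in the table at or below 0.464 CPM. The part of these cell types in the changes below was not tested.

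Hdac7 was the deacetylase with the most RNA per length in the starting B cells and lay among the 5 with the least at the end of BMT. Its gene lies on the minus strand at chr15:97792664-97844502 of mm10 (GRCm38), and the RefSeq promoter table held 4 start sites for it. Promoters of 300 bases, from 250 before to 50 after a start, were taken for 8 of the 10 genes, 12 promoters in all. No entry was found for Hdac1. Hdac3 was left out of the promoter search, so its absence does not show that the promoter table lacks an entry for it, which was not tested. The motif counts below cover neither gene. Some promoters are shown for Hdac7 and Hdac9, because these were the members that fell in every construct from 1 to 18 hpi and then parted. Those shown include the promoters with a marked motif. The sequences are from RefSeq on GRCm38.p6, on the strand of the gene, 5′ to 3′, and capitals mark letters matching TGANTCA, a motif bound by AP-1 factors.
Hdac7, chr15:97831446-97831745, minus strand: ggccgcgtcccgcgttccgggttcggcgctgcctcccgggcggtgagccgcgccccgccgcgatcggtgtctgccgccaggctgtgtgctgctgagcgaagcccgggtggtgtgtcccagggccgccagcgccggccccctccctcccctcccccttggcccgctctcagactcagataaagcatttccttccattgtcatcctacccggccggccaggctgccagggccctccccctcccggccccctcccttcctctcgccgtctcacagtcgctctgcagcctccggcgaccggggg
Hdac7, chr15:97814814-97815113, minus strand: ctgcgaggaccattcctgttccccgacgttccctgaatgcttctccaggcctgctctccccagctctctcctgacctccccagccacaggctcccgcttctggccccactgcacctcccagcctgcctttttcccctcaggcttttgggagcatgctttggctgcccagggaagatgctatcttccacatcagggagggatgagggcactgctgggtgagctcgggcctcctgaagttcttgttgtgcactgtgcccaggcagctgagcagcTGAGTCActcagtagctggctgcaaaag
Hdac9, chr12:34528840-34529139, minus strand: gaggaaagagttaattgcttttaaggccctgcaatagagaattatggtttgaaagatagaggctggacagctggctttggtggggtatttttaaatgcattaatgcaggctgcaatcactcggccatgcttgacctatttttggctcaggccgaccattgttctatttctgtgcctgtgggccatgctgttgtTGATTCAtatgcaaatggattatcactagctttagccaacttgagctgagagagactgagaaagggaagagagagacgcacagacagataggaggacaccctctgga

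The first Hdac7 promoter shown was rich in G and C (73.7%) and held 31 CG dinucleotides, against 60.7% and 5 in the second. The Hdac9 promoter shown had 45.3% and 3. Those not shown had 65.7% and 35, and 54.7% and 6, for Hdac7, and 44% and 0 for Hdac9. TGANTCA, which reads the same on both strands, was found in 2 promoters of the 12, the second Hdac7 promoter and the Hdac9 promoter shown. It was in 7.81% of the 32851 promoters of the same length. The palindromic C/EBP motif TTGCNNAA (10.8% of all promoters), the PU.1 core GAGGAAGT (3.2%) and the ETS core CCGGAAGT (3.89%), searched on both strands, were in none of the 12. CCAAT, in 37.4% of all promoters, was in those of Hdac4, Hdac5, Hdac6, Hdac8 and Hdac11, and the E-box CACGTG, in 7.15%, was in that of Hdac5. Counts are per gene, so that the start in use is not known, and a match is a description of the letters only.

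Hdac7 RNA fell steeply in all constructs. In WT cells the 2 libraries had 232 and 248 CPM at 0 hpi, 117 and 113 CPM at 1 hpi, 127.9 and 132 CPM at 3 hpi, 122 and 125 CPM at 6 hpi, 87.7 and 82.8 CPM at 18 hpi and 34.3 and 29.1 CPM at 120 hpi. In R35A cells it had 230 and 236 CPM at 0 hpi, 84.2 and 85.0 CPM at 1 hpi, 86.1 and 86.6 CPM at 3 hpi, 81.9 and 89.3 CPM at 6 hpi, 69.1 and 73.5 CPM at 18 hpi and 30.5 and 31.0 CPM at 120 hpi. In R35K cells it had 234 and 240 CPM at 0 hpi, 98.0 and 84.2 CPM at 1 hpi, 95.6 and 94.4 CPM at 3 hpi, 89.2 and 85.4 CPM at 6 hpi, 71.6 and 67.1 CPM at 18 hpi and 28.3 and 27.3 CPM at 120 hpi. Within each construct the uninduced libraries stood above all induced ones, and those at 120 hpi stood below all others. WT and R35A, which share a count table, overlapped at 0 hpi, and at each time from 1 to 18 hpi both WT libraries lay above both R35A libraries. R35K was deposited in a table of its own, so that table and construct cannot be told apart in its levels, which stand here without an order against WT.

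**Figure D1:**
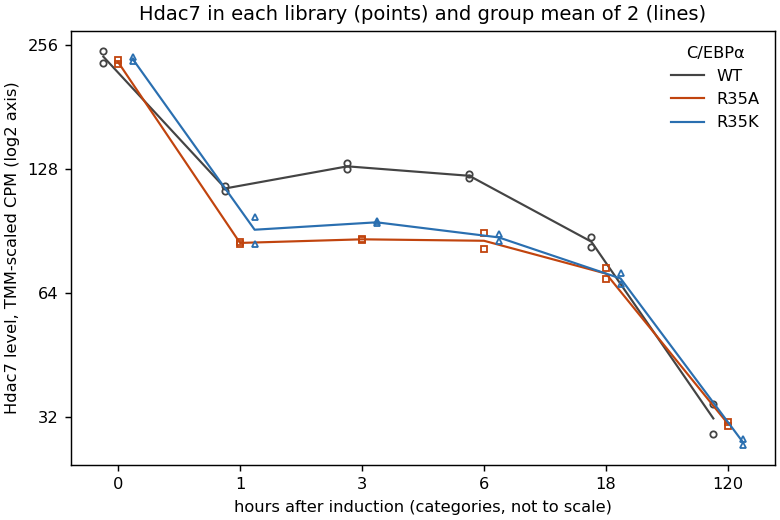
Hdac7 level in TMM-scaled CPM on a log2 axis against hours after induction, drawn as categories, with a point for each of the 36 libraries and a line through the mean of the 2 libraries of each group. The constructs start together at 230 to 248 CPM, WT lies above R35A from 1 to 18 hpi, and all reach 27.3 to 34.3 CPM at 120 hpi.

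Against the uninduced cells of the same construct, Hdac7 fell at 1 hpi by 1.04 on the log2 scale in WT (SE 0.04, adjusted p = 5.01e-27), by 1.49 in R35A (SE 0.04, adjusted p = 6.43e-34) and by 1.43 in R35K (SE 0.05, adjusted p = 1.98e-23). At 18 hpi its log2 fold changes were -1.497, -1.73 and -1.82. At 120 hpi it had fallen by 3.04 in WT and in R35A and by 3.19 in R35K (SE 0.05, 0.05 and 0.06), which is 8.25-fold, 8.25-fold and 9.13-fold. Between 18 and 120 hpi it fell again, by 1.55, 1.32 and 1.38. Its highest and lowest group means, 240 CPM in WT at 0 hpi and 27.8 CPM in R35K at 120 hpi, differed 8.63-fold, the widest range of the 10 genes. This range and the order of the 18 group means cross the separate count tables, so that table and construct cannot be told apart in them. In that order, replicate ranges overlapped in 10 of the 17 neighbouring pairs. A stretch of 29 exon bases is shared with Slc48a1 on the other strand, of the 6755 exon bases of Hdac7.

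The other class IIa genes each had a course of their own. Hdac9, a class IIa enzyme with a MEF2-binding splice form that lacks the catalytic domain, fell early and came back. WT libraries had 21.9 and 21.9 CPM at 0 hpi, 13.8 and 13.98 CPM at 1 hpi, 10.5 and 10.9 CPM at 18 hpi and 24.6 and 27.5 CPM at 120 hpi. R35A libraries had 19.9 and 21.0, 10.3 and 11.5, 10.3 and 9.62, and 27.3 and 28.4 CPM at the same 4 times, and R35K libraries had 21.9 and 19.9, 11.8 and 10.7, 7.91 and 6.51, and 35.1 and 40.2 CPM. Within each construct every library from 1 to 18 hpi lay below both libraries at 0 hpi, and both libraries at 120 hpi lay above them. Hdac9 fell by 0.63, 0.93 and 0.95 on the log2 scale at 1 hpi and by 1.03, 1.06 and 1.58 at 18 hpi in WT, R35A and R35K. Between 18 and 120 hpi it rose by 1.16 (SE 0.09, adjusted p = 1.07e-15), 1.38 (SE 0.09, adjusted p = 4.36e-19) and 2.32 (SE 0.10, adjusted p = 3.08e-20). Against 0 hpi, the rise at 120 hpi was called in R35K (log2 fold change 0.75), while the log2 differences of 0.12 in WT and 0.32 in R35A were not called.

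Hdac4, which is known as a repressor of MEF2 in muscle and cartilage, was the member with higher levels after induction in all constructs. Its levels were 40.3 and 39.8 CPM in WT, 39.5 and 43.8 CPM in R35A and 41.1 and 42.6 CPM in R35K at 0 hpi, and 68.3 and 63.5, 73.2 and 66.5, and 69.0 and 68.1 CPM at 120 hpi. The libraries at 120 hpi did not overlap with those at 0 hpi. Hdac4 rose at 120 hpi by 0.59 (SE 0.06), 0.62 (SE 0.06) and 0.61 (SE 0.06) on the log2 scale, just above the threshold, and in WT also at 18 hpi by 0.59. In WT the call was lost at 120 hpi without the second 0 hpi library (0.57) or with no filter on low counts (0.52), and in R35A without the first 0 hpi library (0.55). It shares 3536 of its 15813 exon bases with a noncoding gene on the other strand, Gm26720.

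Hdac5, the other MEF2-binding enzyme of this class with high RNA, ended higher in WT than in R35A. Its WT libraries had 180 and 183 CPM at 0 hpi, 138 and 148 CPM at 18 hpi and 257 and 249 CPM at 120 hpi. At 120 hpi R35A had 187 and 180 CPM and R35K 199 and 185 CPM, and both R35A libraries lay below both WT libraries. In WT it rose from 18 to 120 hpi by 0.70 on the log2 scale (SE 0.04, adjusted p = 1.53e-22). Its difference from 0 hpi at 120 hpi was 0.36 in WT (adjusted p = 4.78e-12), -0.03 in R35A (adjusted p = 0.47) and -0.01 in R35K (adjusted p = 0.917), none at 1.5-fold.

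Of the class I genes, 3 fell and Hdac3 was not called in any comparison. Hdac1, the catalytic subunit shared with Hdac2 by the Sin3, NuRD and CoREST complexes, had 34.3 and 33.8 CPM in WT, 33.0 and 33.9 CPM in R35A and 33.6 and 33.8 CPM in R35K at 0 hpi. At 1 hpi it had 26.1 and 26.7, 22.3 and 22.4, and 21.6 and 23.5 CPM, and at 18 hpi 21.5 and 19.6, 20.0 and 19.4, and 18.07 and 20.92 CPM. Both R35A libraries at 1 hpi lay below both WT libraries, and at 18 hpi these constructs overlapped. Hdac1 fell at 1 hpi by 0.61 in R35A and 0.63 in R35K, while the difference in WT was -0.34, and at 18 hpi it fell in all constructs, by 0.73, 0.78 and 0.84. At 120 hpi it fell in R35A by 0.65 and in R35K by 0.68, with -0.51 in WT. Gm10093, a gene with an Hdac1-like sequence, held 5 to 22 counts a library. How reads matching both genes were counted was not tested.

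Hdac2 had 120.5 and 128.4, 124 and 122, and 130 and 121 CPM at 0 hpi in WT, R35A and R35K, and 69.1 and 72.0, 71.8 and 75.2, and 67.5 and 65.2 CPM at 120 hpi, with no overlap. It fell at 120 hpi by 0.95 (SE 0.05), 0.86 (SE 0.04) and 1.02 (SE 0.05) on the log2 scale. Hdac8, an X-linked deacetylase of the cohesin subunit SMC3, had 23.0 and 19.4, 22.1 and 21.8, and 23.2 and 23.3 CPM at 0 hpi and 13.0 and 13.4, 14.3 and 15.6, and 17.0 and 14.7 CPM at 120 hpi. Its WT libraries at 120 hpi lay below those of R35A, and in no construct did a library at 120 hpi reach one at 0 hpi. Hdac8 fell by 0.82 in WT (SE 0.11), 0.68 in R35A (SE 0.10) and 0.66 in R35K (SE 0.09) at 120 hpi. At 1 hpi it fell in R35A by 0.67 and in R35K by 0.65, with -0.29 in WT. Hdac3, the catalytic subunit of the NCoR/SMRT complex, ranged from 68.6 CPM in R35K at 6 hpi to 86.4 CPM in R35K at 0 hpi as group means, a ratio of 1.26 and the narrowest range of the members. Its log2 differences from 0 hpi lay between -0.40 and -0.15. With DESeq2 size factors in place of TMM, the calls of Hdac1 and Hdac8 at 120 hpi were lost in both mutants, as were that of Hdac8 at 18 hpi in WT, that of Hdac1 at 1 hpi in R35A, those of Hdac1 and Hdac8 at 1 and 3 hpi in R35K, and those of Hdac2 at 1 and 6 hpi in R35K.

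Hdac11 changed late in each construct, and Hdac6 was called only in WT at 120 hpi. In R35K the log2 difference of Hdac6 from 0 hpi was already -0.28 at 1 hpi and -0.27 at 18 hpi, neither called. Hdac6 had 39.0 and 41.1 CPM in WT at 0 hpi and 28.2 and 29.5 CPM at 120 hpi, and fell by 0.60 (SE 0.08, adjusted p = 1.82e-09). In R35A its 2 libraries at 120 hpi differed, with 25.9 and 33.1 CPM, and those of R35K had 32.6 and 34.5 CPM, for log2 differences of -0.50 and -0.35 that were not called. In WT the call rested on the scaling and on single libraries: with DESeq2 size factors the difference was -0.45, and in one fit of all 36 libraries -0.47, and without the second 0 hpi library or the first or second 120 hpi library -0.57, -0.43 and -0.50. Hdac11, the smallest enzyme of the family and a fatty-acyl lysine hydrolase, was the member with the fewest counts. It had 6.93 and 6.34 CPM at 0 hpi, 7.40 and 7.41 CPM at 18 hpi and 3.18 and 2.29 CPM at 120 hpi in WT, 6.64 and 7.24, 7.45 and 7.21, and 3.41 and 2.65 CPM in R35A, and 6.79 and 6.81, 6.73 and 5.74, and 3.93 and 3.66 CPM in R35K. Every library at 120 hpi lay below every earlier one. Hdac11 fell at 120 hpi against 0 hpi by 1.39 (SE 0.19), 1.33 (SE 0.17) and 0.94 (SE 0.17) on the log2 scale, and was called at no earlier time. Of its 3849 exon bases, 594 are shared with Gm44002 on the other strand. The plot of all members shows the late step of Hdac11 beside the early step of Hdac7.

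**Figure D2:**
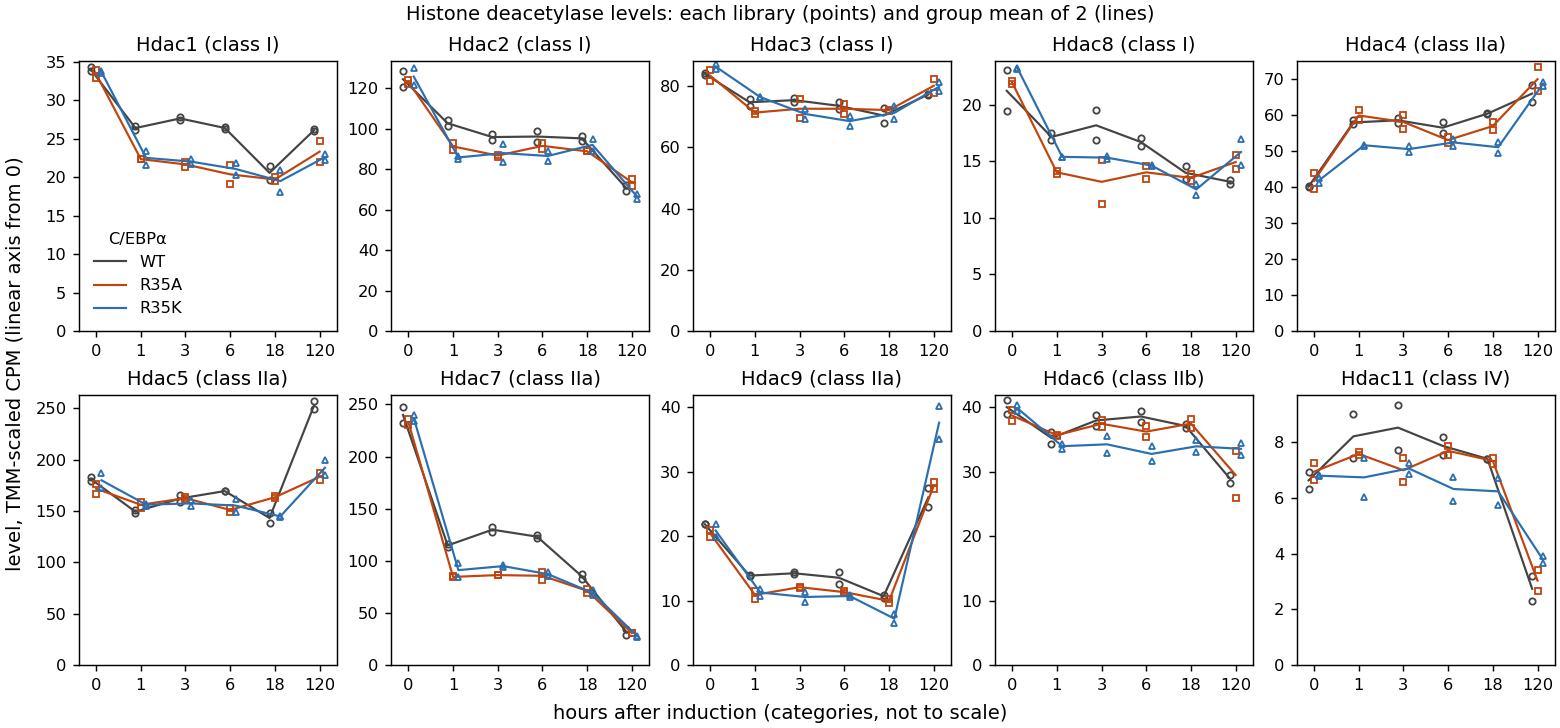
Levels of the 10 genes in TMM-scaled CPM on linear axes from 0, against hours after induction as categories, with a point for each library and a line through the mean of 2. Hdac7 drops at 1 hpi and again at 120 hpi, Hdac9 dips to 7.21 CPM in R35K at 18 hpi and returns, Hdac4 lies higher after induction, and Hdac11 drops at 120 hpi.

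Counts over the members are set beside the share of all genes called. The comparisons within a construct share its 0 hpi libraries. In WT, 2 of the 10 members were called at 1 hpi, at 3 hpi and at 6 hpi, all lower (Hdac7 and Hdac9), where 19.9%, 23.5% and 29.8% of all genes tested were called. At 18 hpi in WT 1 rose and 4 fell (47.1% of all genes called), at 120 hpi 1 rose and 5 fell (63.3%), and from 18 to 120 hpi 2 rose and 2 fell (60.5%). In R35A, 4 fell and none rose at 1, 3, 6 and 18 hpi (Hdac1, Hdac7, Hdac8 and Hdac9), beside 37.3%, 36.8%, 37.7% and 42.6% of all genes called. At 120 hpi in R35A 1 rose and 5 fell (63.1%), and from 18 to 120 hpi 1 rose and 2 fell (53.9%). In R35K, 5, 4, 5 and 4 fell and none rose at 1, 3, 6 and 18 hpi, beside 32.9%, 32.7%, 34.1% and 39.0%. These shares hold both directions. The share of all genes that fell at 1, 3, 6 and 18 hpi was 9.27%, 11.5%, 14.7% and 23.2% in WT. It was 18.9%, 19.0%, 19.2% and 21.6% in R35A and 17.4%, 16.8%, 17.8% and 20.5% in R35K. At 120 hpi in R35K 2 rose and 5 fell (63.8%), and from 18 to 120 hpi 1 rose and 2 fell (53.3%). The median log2 fold change of the members at 120 hpi against 0 hpi was -0.55, -0.58 and -0.50 in WT, R35A and R35K, and that of all genes was -0.36, -0.31 and -0.28. With DESeq2 size factors in place of TMM the medians of all genes at 120 hpi became -0.21, -0.18 and -0.14, and in WT at 18 hpi 0.14 in place of 0.02.

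**Figure D3:**
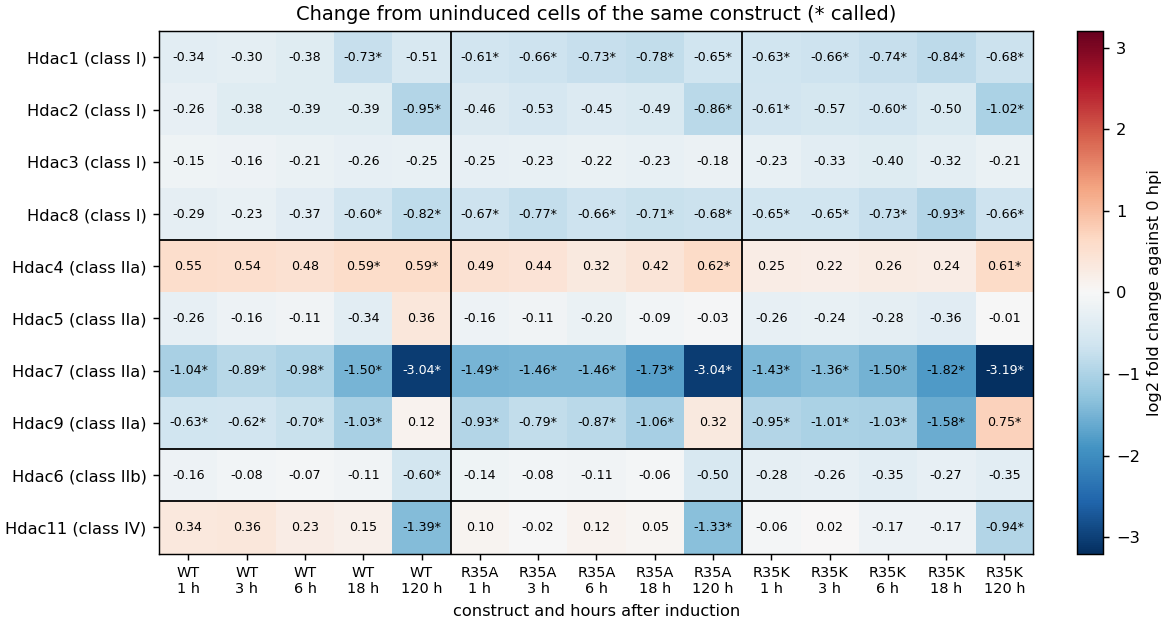
Log2 fold change of each member against the 0 hpi cells of the same construct, by construct and hours after induction, with an asterisk on changes called at an adjusted p of at most 0.05 and 1.5-fold. Blue is lower and red is higher, from -3.19 for Hdac7 in R35K at 120 hpi to 0.75 for Hdac9 in R35K at 120 hpi.

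Levels per length showed how the family's composition shifted. Per kilobase of summed exon length, the WT cells at 0 hpi had 35.5 CPM of Hdac7, 27.8 of Hdac2, 20.7 of Hdac3 and 20.6 of Hdac5, followed by Hdac1 (9.88), Hdac6 (6.88), Hdac8 (4.39), Hdac4 (2.53), Hdac11 (1.72) and Hdac9 (1.49). At 120 hpi in WT the order began with Hdac5 (28.8 CPM per kilobase), Hdac3 (19.1) and Hdac2 (15.8), and Hdac7 was at 4.69. The share of Hdac7 in the summed per-length level of the 10 genes was 27.0% ± 0.73 (SD, n = 2) in WT, 26.8% in R35A and 26.5% in R35K at 0 hpi. It was 17.1%, 13.9% and 14.9% at 1 hpi and 5.19%, 5.44% and 4.90% at 120 hpi. The share of Hdac5 went from 15.7%, 15.2% and 15.5% to 31.9%, 25.0% and 26.0% over the same time, so that class IIa as a whole held 45.7%, 45.0% and 45.1% at 0 hpi and 43.7%, 37.9% and 39.1% at 120 hpi. The summed level itself was 132 CPM per kilobase at 0 hpi in WT and 90.3 at 120 hpi, 129 and 83.7 in R35A, and 132 and 84.0 in R35K. These shares are descriptions, since the annotated exon length is not the length of the transcripts in use.

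**Figure D4:**
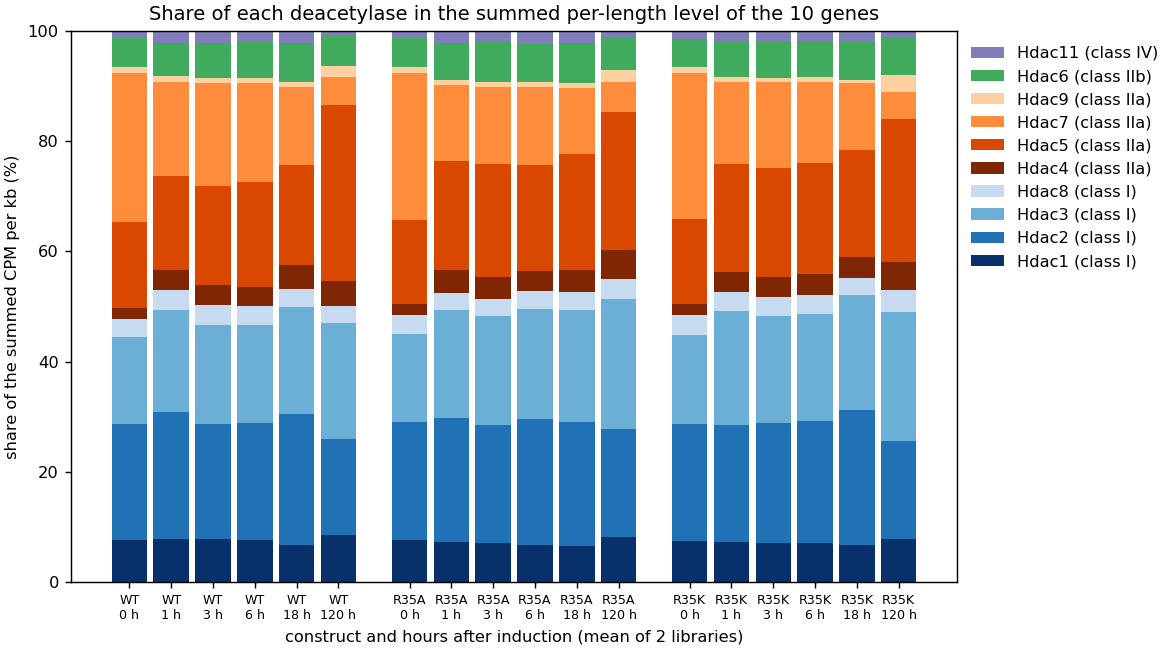
Share of each gene, in percent, in the summed CPM per kilobase of the 10 genes, as stacked bars from 0 to 100 for the 18 groups (mean of 2 libraries). The Hdac7 band narrows from 26.5 to 27.0% at 0 hpi to 4.90 to 5.44% at 120 hpi, and the Hdac5 band widens.

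The question of whether the arginine 35 mutants act faster was put to each member as the difference between a mutant and WT in the change from 0 hpi. Between R35A and WT at 0 hpi none of the 10 members was called in edgeR, as was none of all genes (0% called). No member had an unadjusted p under 0.05 in edgeR. DESeq2 called no member either, but it gave an adjusted p for only 1890 genes there, 1 of them called. A member outside those genes could not have been called, so that the lack of a DESeq2 call decides little. The largest log2 difference among the members was -0.09, for Hdac9 (adjusted p = 0.793). For R35K, with its separate table, only the changes from its own 0 hpi cells were set against those of WT. No member was called at 1, 3, 6, 18 or 120 hpi for R35A minus WT, where 14.0%, 13.0%, 10.3%, 8.36% and 14.5% of all genes were called. For R35K minus WT none was called at 1, 3, 6 and 18 hpi and 1 at 120 hpi, beside 11.9%, 10.0%, 12.2%, 13.3% and 10.1% of all genes. At an unadjusted p under 0.05 in edgeR, 5, 5, 3, 2 and 1 members differed for R35A, where 41.4%, 38.7%, 34.6%, 31.3% and 40.9% of all genes did, and 5, 6, 8, 4 and 3 for R35K, where 36.6%, 33.7%, 37.7%, 38.5% and 33.1% did. DESeq2 called none for R35A, and for R35K only Hdac9 at 18 hpi (-0.61).

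By adjusted p alone, 4, 4, 2, 2 and 1 members differed for R35A minus WT at the 5 times (34.0%, 31.0%, 25.9%, 21.7% and 33.3% of all genes), and 3, 5, 3, 3 and 2 for R35K minus WT (28.8%, 25.1%, 29.9%, 30.8% and 24.6%). Hdac7 was among them at 1, 3, 6 and 18 hpi for both mutants, with a lower change from 0 hpi in the mutant each time. The difference for R35A was -0.44 at 1 hpi (SE 0.06, adjusted p = 2.79e-08), -0.58 at 3 hpi (SE 0.06, adjusted p = 2.73e-11), -0.48 at 6 hpi (SE 0.06, adjusted p = 4.32e-09) and -0.23 at 18 hpi (SE 0.06, adjusted p = 0.00435). For R35K it was -0.32, -0.44, -0.48 and -0.28 (SE 0.07 each), with adjusted p of 0.000148, 2.97e-07, 3.64e-08 and 0.00119. At 120 hpi the Hdac7 differences were -0.00021 (SE 0.08, adjusted p = 0.9999) and -0.17 (SE 0.09, adjusted p = 0.186). The value at 3 hpi for R35A corresponds to 1.49-fold, just under the threshold, and it passed 1.5-fold without the second WT library at 0 hpi (-0.61), the first WT library at 3 hpi (-0.60) or the first R35A library at 0 hpi (-0.59), and when the 3 hpi levels were compared directly (-0.61). Hdac8, at -0.53 in the same comparison (SE 0.14, adjusted p = 0.0021), was called without the first WT library at 0 hpi (-0.67), the second WT library at 3 hpi (-0.64) or the first R35A library at 3 hpi (-0.76).

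Between 1 and 18 hpi, other members also had a lower change from 0 hpi in a mutant than in WT by adjusted p alone. These were Hdac1, Hdac2, Hdac4, Hdac8 and Hdac9. For Hdac1 the differences were -0.26, -0.35 and -0.34 at 1, 3 and 6 hpi for R35A (adjusted p = 0.0408, 0.00568 and 0.00827) and -0.31 at 3 and at 6 hpi for R35K (adjusted p = 0.0151 and 0.0158). For Hdac2 they were -0.20 and -0.16 at 1 and 3 hpi for R35A (adjusted p = 0.0054 and 0.0387) and -0.28 and -0.17 at 1 and 6 hpi for R35K (adjusted p = 0.000527 and 0.0411). Hdac8 passed at 1 hpi for R35A (-0.38, adjusted p = 0.0271) and at 3 hpi for R35K (-0.37, adjusted p = 0.0227), beside the 3 hpi value for R35A above. Hdac4 passed for R35K at 1, 3 and 18 hpi (-0.23, -0.28 and -0.30, adjusted p = 0.0274, 0.00651 and 0.00241), and so did Hdac9 at 3 hpi (-0.35, adjusted p = 0.0384). The change of Hdac4 was upward in both constructs, at 1 hpi 0.25 in R35K and 0.55 in WT in their own fits.

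Hdac5 passed at 18 hpi for R35A and at 120 hpi for both mutants, and Hdac9 at 18 and 120 hpi for R35K. The log2 difference of Hdac5 from 0 hpi at 18 hpi was -0.09 in R35A and -0.34 in WT. It was thus less negative in R35A, by 0.25 (SE 0.05, adjusted p = 0.000272). The change of Hdac5 from 0 to 120 hpi was smaller than in WT by 0.39 in R35A (SE 0.05, adjusted p = 6.01e-08) and by 0.39 in R35K (SE 0.06, adjusted p = 6.01e-07), or 1.31-fold in each. Hdac9 changed by 0.60 more in R35K than in WT (SE 0.12, adjusted p = 6.71e-05, 1.51-fold), and by 0.20 more in R35A (SE 0.12, adjusted p = 0.211). The R35K call was lost with DESeq2 size factors (0.58) and without the first WT library at 120 hpi (0.52), the second R35K library at 0 hpi (0.54) or the second at 120 hpi (0.50). At 18 hpi the Hdac9 difference for R35K was -0.50 (SE 0.15, adjusted p = 0.00529), and it was called with DESeq2 size factors (-0.61) or without the first R35K library at 18 hpi (-0.65). At 1 hpi all 8 B cell markers fell further and 7 of the 8 macrophage markers rose further in each mutant than in WT, and at 120 hpi 6 of the 10 feeder fibroblast genes were higher relative to WT in each mutant, and the part of these in the Hdac differences was not tested.

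**Figure D5:**
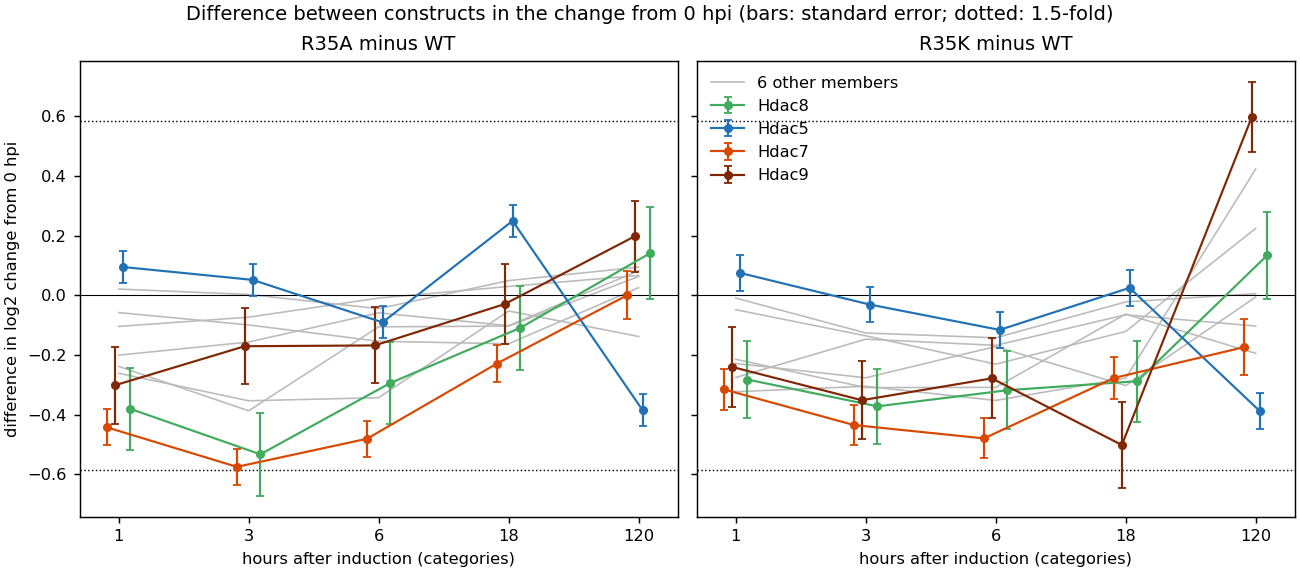
Difference between a mutant and WT in the log2 change from 0 hpi, by hours after induction as categories, for R35A (left) and R35K (right). Coloured points with bars (standard error) are Hdac5, Hdac7, Hdac8 and Hdac9, grey lines the other members, and dotted lines 1.5-fold. Hdac7 lies below 0 from 1 to 18 hpi in both panels, at -0.58 for R35A at 3 hpi, and Hdac9 reaches 0.60 for R35K at 120 hpi.

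Genes around the deacetylases were described by lists. Hdac10, the class IIb polyamine deacetylase, is not among the 10 members but completes the zinc-dependent family. It had 29.9 and 30.3 CPM at 0 hpi, 31.3 and 36.4 CPM at 1 hpi and 15.8 and 14.9 CPM at 18 hpi in WT, against 25.8 and 26.5, 16.9 and 17.5, and 15.7 and 14.4 CPM in R35A and 30.4 and 29.0, 20.5 and 18.3, and 14.3 and 13.3 CPM in R35K. At 1 hpi R35A lay below WT, and at 18 hpi both were close. The change from 0 to 1 hpi was lower than in WT by 0.83 in R35A (SE 0.13, adjusted p = 3.53e-07) and by 0.79 in R35K (SE 0.12, adjusted p = 4.60e-07), both called. It fell at 18 hpi by 0.97, 0.82 and 1.15 and rose between 18 and 120 hpi by 0.94, 0.98 and 1.13.

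Among partners of the class I enzymes, 7 of 12 NuRD genes fell and none rose at 120 hpi in WT, 6 in R35A and 7 in R35K, with list medians of -0.74, -0.72 and -0.85 on the log2 scale beside -0.36, -0.31 and -0.28 for all genes. Of all genes 40.2%, 39.0% and 38.5% fell at 120 hpi in WT, R35A and R35K, and 63.3%, 63.1% and 63.8% were called in either direction, which is the background for each list at that time. Rbbp4 and Rbbp7, histone chaperones of the NuRD and Sin3 complexes, fell by 1.103 and 1.35 in WT, and Gatad2b, a NuRD scaffold, by 1.46. Of 13 tested Sin3 genes (14 listed), 2 rose (Sap30 by 0.61 and Arid4a by 0.59) and 2 fell (Arid4b by 1.19 and Ing2 by 0.64) in WT at 120 hpi, 2 fell in R35A and 3 fell in R35K. None of the 5 NCoR/SMRT genes was called at 120 hpi in the 3 constructs. At 1 hpi none was called in WT, 3 fell in R35A and 1 fell in R35K, where 19.9%, 37.3% and 32.9% of all genes were called. Of 13 CoREST and MiDAC genes in the table (14 listed), 2 rose and 4 fell at 120 hpi in each construct, and Gse1, a CoREST-associated protein, fell (log2 fold changes of -2.21, -2.26 and -2.25), as did the lysine demethylase Kdm1a (-0.85, -1.02 and -1.04). Elmsan1, a MiDAC scaffold, rose by 2.09, 1.101 and 1.42, and Rcor3 by 1.05, 1.18 and 1.33, while Rcor2 fell by 1.23, 1.26 and 1.42.

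Among partners of class IIa, 1 of the 4 MEF2 genes rose and 1 fell at 120 hpi in WT, and 1 rose and 2 fell in each mutant. Mef2a rose from 162 ± 2.17 CPM to 443 ± 20.8 CPM in WT (SD, n = 2), by 1.32 on the log2 scale, and by 1.12 and 1.33 in R35A and R35K, while Mef2b fell by 2.14, 1.87 and 1.76. Mef2b was near the floor throughout, with means of 1.33, 0.828 and 1.07 CPM at 0 hpi in WT, R35A and R35K. At 120 hpi its means were 0.324, 0.246 and 0.332 CPM. Of 13 kinases known to phosphorylate class IIa enzymes, 3 rose and 4 fell at 120 hpi in WT and 3 rose and 5 fell in each mutant, beside 63.3%, 63.1% and 63.8% of all genes called. Camk1 and Camk1d, calcium/calmodulin-dependent kinases, rose by 2.63 and 2.09 in WT and the salt-inducible kinase Sik1 by 1.81, while Camk4 fell by 3.30. Prkd2, a protein kinase D, fell at 1 hpi (log2 fold changes of -1.40, -2.37 and -1.87) and at 120 hpi (-3.17, -2.79 and -2.97), in WT from 96.4 ± 1.40 CPM to 11.7 ± 0.38 CPM (SD, n = 2). Prkd1 had 0 counts in every library at 120 hpi, which is at least 31-fold lower than its 7.05 CPM at 0 hpi in WT, taking 3 counts in a library as the limit. Of 7 genes of 14-3-3 proteins, Sfn fell at 120 hpi in each construct and no other fell, while none rose in WT or R35K and 1 rose in R35A.

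The enzymes that oppose or resemble the members moved in both directions. Of 7 sirtuins, the NAD-dependent deacetylases, 3 rose and 1 fell at 120 hpi in WT and 2 rose and 1 fell in each mutant. Sirt2 rose by 1.33 in WT and Sirt4 by 0.66, 1.07 and 0.70, Sirt7 rose by 0.68 in WT, and Sirt1 fell by 0.59, 1.32 and 1.00. Of 12 lysine acetyltransferases, 3 rose in each construct at 120 hpi (Ncoa3, Kat2b and Ncoa1, by 1.38, 1.17 and 1.09 in WT), and 4, 3 and 2 fell, beside 63.3%, 63.1% and 63.8% of all genes called, with Crebbp, a transcriptional coactivator, falling by 0.95, 1.07 and 0.95. Kat7 and Kat6b fell in WT by 0.67 and 0.68.

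The genes with a course most like that of Hdac7 over the 18 group means of log2 levels, among 12380 genes, were Ptp4a3 (Pearson r = 0.995), Parn (0.993), Aimp1 (0.992), Smarcc1 (0.991) and Strbp (0.991). For Hdac9 they were G3bp2 (0.963), Nr3c1 (0.959), Alg6 (0.958), Lyrm9 (0.958) and Dennd2d (0.955), and for Hdac11 Capn6 (0.987), Gulp1 (0.987), Ppm1l (0.986), Zfp354c (0.983) and Abat (0.982). Among the members, Hdac2 was most like Hdac7 (r = 0.963) and Hdac4 least (r = -0.869), and Hdac9 had r = -0.227 with Hdac7. These values are across groups that share a time course and are given without a test.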

How the data were processed

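RNA-seq libraries were made by the authors with a stranded mRNA kit, sequenced in single-end reads and aligned to mm10 with STAR 2.5.0a, which also counted reads per gene; the strand column and annotation release are not given in the sources used here. The deposited count tables hold raw counts per gene for 36 libraries, WT with R35A in 1 table and R35K in another. The deposited log2 tables hold log2(normalized count + 1) made by the authors with DESeq2 1.14.1 and were used only to check the counts. No column of per-sample values was left unmapped (0 columns).

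Counts were fitted with edgeR 4.0.16 in R 4.3.3 (TMM, filterByExpr, glmQLFit and glmQLFTest, Benjamini-Hochberg adjustment), for WT and R35A together (24 libraries, 16988 genes) and R35K alone (12 libraries, 16434 genes). R35K minus WT was taken from a joint fit of 36 libraries (17277 genes). Exon lengths and coordinates came from GENCODE vM21. Each fit was tested on simulated data. Alternatives were DESeq2 1.42.0, edgeR with the size factors of DESeq2, keeping genes of low count, a replicate block, 1 fit of all libraries, adjusted p alone, a direct comparison at the same time, and leaving out each library.

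Replicate numbers were checked for pairing: over 153 pairs of groups the correlation of deviations had a median of -0.00741, from -0.309 to 0.176, so that they were not treated as pairs. The members and lists were chosen with earlier results of these data known. All members are named; from each list, up to 3 called genes in each direction at 120 hpi in WT; and for Hdac7 and the 2 other members of widest range, the 5 genes of highest Pearson r, using log2(CPM + 0.1).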

Additional observations from a re-analysis of the deposited data

Results flagged for a closer look

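Hdac9 was the member whose change differed between constructs at 1.5-fold. Its change from 0 to 120 hpi was larger by 0.60 on the log2 scale in R35K than in WT (SE 0.12, adjusted p = 6.71e-05 in edgeR's quasi-likelihood test), and the test of that difference itself is what brought it here. From 0 to 120 hpi the R35K libraries went from 21.9 and 19.9 CPM to 35.1 and 40.2 CPM and the WT libraries from 21.9 and 21.9 CPM to 24.6 and 27.5 CPM. The levels of these 2 constructs come from separate tables, so that table and construct cannot be told apart in them. The call was lost with DESeq2 size factors and when some single libraries were left out. In this comparison 10.1% of all genes were called.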

How the results depend on the processing

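With an adjusted p alone, without 1.5-fold, 9, 9, 8 and 8 members were called in WT at 1, 3, 6 and 18 hpi. Between 18 and 120 hpi 7 were called in WT. In R35A 8 were called at each of these 4 times and 6 between 18 and 120 hpi. In R35K 9 were called at each of the 4 times and 7 between 18 and 120 hpi. Over all comparisons of times within a construct, those of 120 hpi with 0 hpi included, 51.3 to 83% of all genes passed. For R35A minus WT the members called were 4, 4, 2, 2 and 1, and for R35K minus WT 3, 5, 3, 3 and 2. With DESeq2 size factors and with DESeq2, R35K had 2 called members at 1 hpi and 2 at 3 hpi, R35K minus WT had 1 at 18 hpi and 0 at 120 hpi, and in 1 fit of all 36 libraries R35K had 3 at 1 hpi. A direct comparison of R35A with WT at 3 hpi called 1. Leaving out each library in turn gave 0 to 1 for R35A minus WT at 3 hpi, for R35K minus WT at 18 hpi and for R35K minus WT at 120 hpi. With the replicate block, which assumes a pairing the check did not show, the Hdac9 difference at 120 hpi was 0.60 (0.596), no count of called members moved by more than 1.5 times and no call of a single member was lost. No called change was reversed in direction in any alternative, and the calls of Hdac7 against 0 hpi were kept in all of them. Uncalled differences near 0 could change sign with the scaling. For Hdac5 at 120 against 0 hpi the fits gave -0.03 in R35A and -0.01 in R35K. Its mean levels scaled over all 36 libraries went from 171.6 to 183.2 CPM in R35A and from 179.8 to 192 CPM in R35K. With 2 libraries a group, changes close to 1.5-fold (Hdac1, Hdac2, Hdac4, Hdac6, Hdac8, and Hdac9 in R35K minus WT) cross the threshold with scaling or with single libraries; the cause was not tested.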
